A study of Mus musculus with 12 samples.

Results

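The genes described here are 9 effectors of cell killing, the granzymes Gzma, Gzmb, Gzmc, Gzmd, Gzme, Gzmf and Gzmk, the pore-forming protein perforin (Prf1) and the granule membrane protein Nkg7. They were listed by name, with no threshold on a measured value although with earlier results of these data known, and are 9 of the 27457 genes listed for a single-cell RNA-seq study of mouse tumors. All 9 were present in the count matrix. Each gene was read as the number of unique molecular identifiers (UMIs, 1 per captured mRNA molecule) summed over the cells of a cluster or of a tumor, and levels are given as counts per 1000000 UMIs of the same cells (CPM).

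Cytotoxic lymphocytes kill by releasing granules toward a bound target. Perforin opens the target cell membrane and lets the granzymes, a family of serine proteases, into the cytosol. Granzyme B cleaves caspases and Bid and starts apoptosis, granzyme A cleaves other substrates and is typical of NK cells and some T cells, granzyme K marks CD8 T cells at an early effector or memory stage, and granzymes C, D, E and F belong to a group of closely related genes of rodents that are induced in activated T and NK cells. Nkg7 is required for efficient granule release and is expressed across cytotoxic lymphocytes. In mice the granzyme genes lie in separate loci, and transcription factors such as T-bet, Eomes and Runx3 drive several of them.

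The tumors were grown from MC38, a colon carcinoma line of C57BL/6 origin, after subcutaneous injection into female mice of 8 to 12 weeks. The hosts were B6 mice (C57BL/6J) or F1 crosses of C57BL/6J with 1 of 7 Collaborative Cross (CC) strains, so that every host carried C57BL/6J alleles. Tumors of 75 to 110 mm3 were treated with a single intraperitoneal dose of 200 µg of isotype control antibody (2A3) or of antibody to PD-1 (aPD1, 29F.1A12), and were taken 48 h later and frozen. Sorting set the input at 90% CD45+ and 10% CD45- cells, and 4 tumors with different hashtag antibodies were pooled in each of 12 libraries, an isotype and an aPD1 tumor of each of 2 strains. The study classed CC001, CC002 and CC075 F1 mice as responder strains and CC036, CC079 and CC080 F1 mice as nonresponder strains from tumor growth in other animals, a class that the sample labels do not carry, while B6 and CC007 F1 mice had no class. Class is therefore a property of 3 strains against 3, and the tumors of a strain are not independent samples of its class.

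The data held 93126 cells of 48 tumors, of which 38 came from classed strains, with 10 responder isotype, 10 responder aPD1, 9 nonresponder isotype and 9 nonresponder aPD1 tumors. A tumor contributed between 53 and 3082 cells, and a classed tumor between 808362 and 17713491 UMIs. The 12021 cells of 9 lymphocyte clusters (1, 3, 7, 8, 10, 12, 13, 23 and 24 of the authors' 27), called T/NK cells here, numbered from 8 to 810 a tumor. The smallest number was from a CC007 aPD1 tumor, and 1 classed tumor (CC002 isotype, pool 12) had only 248 cells. In all, 10176 cells (10.9%) carried a barcode that also occurred in another library. Isotype and aPD1 tumors carried different hashtags throughout, and an influence of hashtag cannot be told apart from one of treatment. Of 48 tumors, 2 from CC080 mice (isotype in pool 3 and aPD1 in pool 4) carried the same animal number.

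Clusters were named from marker genes. Clusters 3 and 13 were CD8 T-like (Cd3e 1170 and Cd8a 731 CPM in cluster 3, Cd3e 742 and Cd8a 483 CPM in cluster 13), cluster 1 was cycling CD8 T-like (Mki67 612 CPM), cluster 8 was Treg-like (Foxp3 247, Il2ra 613 and Ctla4 986 CPM), cluster 10 CD4 T-like (Cd4 482 CPM), cluster 23 gamma-delta T-like (Tcrg-C1 149 CPM) and cluster 24 NK-like (Ncr1 452 CPM, with Cd3e at 19.3 CPM). Cluster 12 held both T cell and macrophage markers (Cd3e 378, Lyz2 2866 and Apoe 1813 CPM) and was left unnamed. Cluster 7 was left unnamed too. It had the naive T cell genes Lef1 (182 CPM) and Tcf7 (153 CPM), but Ccr7 was at 56.1 CPM, against 163 CPM in cluster 10, and Tox and Ctla4, genes of activated T cells, were at 296 and 209 CPM. In Treg-like cluster 8 the CD8 genes Cd8a (121 CPM) and Cd8b1 (120.2 CPM) were at the level of Cd4 (119 CPM), and the part of cells with CD8 mRNA in its granzyme values was not tested. Cycling CD8 T-like cluster 1 had Cd8a at 453 CPM but also Treg genes, with Ikzf2 at 689 and Il2ra at 207 CPM. Foxp3 was at 39.4 CPM in cluster 1 and 30.7 CPM in cluster 13, against 1.71 CPM in cluster 3. The part of Treg cells in the values of clusters 1 and 13 was not tested. The clusters were made from all genes of the same cells, so the levels by cluster below are descriptions and were not tested.

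Of the 9 genes, 5 lie in a run of 7 granzyme genes on chromosome 14. On the GRCm38 build, Gzme (chr14:56117626-56120625), Gzmd (chr14:56129556-56132608), Gzmg (chr14:56156582-56159579), Gzmn (chr14:56165797-56174599), Gzmf (chr14:56205263-56211417), Gzmc (chr14:56231441-56234656) and Gzmb (chr14:56258838-56262260) follow each other on the minus strand within 144.635 kb. Gzma (chr13:113093825-113100981) and Gzmk (chr13:113171608-113225908) lie near each other on the minus strand of chromosome 13. Prf1 (chr10:61297833-61304680) and Nkg7 (chr7:43437073-43438249) lie elsewhere, both on the plus strand.

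The stretches of promoter shown next are those of Gzmd, Gzme and Gzmf, which were among each other's nearest genes in level over clusters. Their neighbors Gzmc and Gzmg are added as the nearest in promoter sequence, Gzmg not being among the 9 genes. The stretches were cut around a motif, a different one for Gzmb, which is shown as a further neighbor. They are RefSeq sequences of the GRCm38.p6 assembly, written 5′ to 3′ on the minus strand, at chr14:56234671-56234786 (Gzmc), chr14:56132611-56132726 (Gzmd), chr14:56120644-56120759 (Gzme), chr14:56211446-56211561 (Gzmf), chr14:56159613-56159728 (Gzmg) and chr14:56262350-56262464 (Gzmb). Capitals mark the Runx letters TGTGGT and a second motif, TGANNTCA (CRE-like) in the first 5 genes and TGANTCA (AP-1) in Gzmb.
Gzmc: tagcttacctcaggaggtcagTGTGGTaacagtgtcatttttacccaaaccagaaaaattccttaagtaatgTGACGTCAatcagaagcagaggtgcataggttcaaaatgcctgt
Gzmd: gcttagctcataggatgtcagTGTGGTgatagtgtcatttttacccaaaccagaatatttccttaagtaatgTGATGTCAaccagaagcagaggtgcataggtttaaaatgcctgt
Gzme: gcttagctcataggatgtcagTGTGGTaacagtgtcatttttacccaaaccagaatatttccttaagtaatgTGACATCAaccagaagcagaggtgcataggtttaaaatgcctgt
Gzmf: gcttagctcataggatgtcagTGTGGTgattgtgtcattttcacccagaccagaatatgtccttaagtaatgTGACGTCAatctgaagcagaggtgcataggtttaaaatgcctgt
Gzmg: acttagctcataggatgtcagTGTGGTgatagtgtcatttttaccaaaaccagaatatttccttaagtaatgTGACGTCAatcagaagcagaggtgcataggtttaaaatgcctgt
Gzmb: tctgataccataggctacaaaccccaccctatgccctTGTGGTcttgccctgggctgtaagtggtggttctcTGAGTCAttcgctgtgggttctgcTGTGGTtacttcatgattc

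The 5 windows from Gzmc to Gzmg, each of 116 bases, were 81.9% to 96.6% identical to each other, while Gzmb was 26.96% to 31.3% identical to them. Letters were compared position by position without alignment. The Gzmb window was cut around another motif, so its value does not measure how alike the promoters are. The 5 windows were cut around TGANNTCA, and all 5 carried TGTGGT at the same distance from it. The middle letters of TGANNTCA were CG in Gzmc, Gzmf and Gzmg. Counting both strands of 32851 promoter windows of 300 bases, TGANNTCA was found in 14.1% and TGTGGT in 16.8% of them, TGANTCA in 7.81%, and the T-box half-site GGTGTGA in 3.98%. Of the 9 genes, 4 held TGANNTCA (Gzmc, Gzmd, Gzme and Gzmf), 8 held TGTGGT (all but Gzmk), 1 held TGANTCA (Gzmb) and 2 held GGTGTGA (Gzmk and Nkg7). A match is a description of the letters only.

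The same relatedness limits the counts. Over aligned transcripts, Gzmd and Gzme were 94.9% identical and shared 6 windows of 91 bases, Gzmd and Gzmg were 90.2% identical with 11 such windows, Gzmd and Gzmf 87.0%, Gzme and Gzmf 86.4%, and Gzmb and Gzmc 78.1%. Reads from the shared stretches could be given to the wrong gene or dropped, so values of Gzmd and Gzme are uncertain one against another. Gzmf shared 0 such windows with Gzmc, Gzmd or Gzme, where only exact matches were counted.

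Nearly all mRNA of the 9 genes was in the T/NK cells. These cells were 12021 of 93126 and held 96.97% of the Gzma UMIs, 97.6% of Gzmb and of Gzmc, 92.3% of Gzmd, 93.7% of Gzme, 87.9% of Gzmf, 94.6% of Gzmk and 98.1% of Prf1 and of Nkg7. The share of T/NK cells with at least 1 UMI was 65.0% for Nkg7, 33.9% for Gzmb, 19.2% for Prf1, 12.0% for Gzma, 5.59% for Gzmc, 5.49% for Gzmk, 1.86% for Gzmf, 1.02% for Gzmd and 0.907% for Gzme. In the 68059 macrophage cells, which should lack these genes, the shares ran from 0.0323% (Gzme) to 0.608% (Nkg7), although macrophages were deeper, with a median of 3481 UMIs a cell against 1918 in T/NK cells. With every cell thinned to 1000 UMIs, which left out 7883 cells below that depth, 59.0% of T/NK cells still had Nkg7, 24.7% Gzmb, 10.1% Prf1, 9.67% Gzma, 4.12% Gzmc, 2.60% Gzmk, 1.34% Gzmf, 0.813% Gzmd and 0.556% Gzme, against 0.0110% to 0.188% of macrophages.

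Among the lymphocyte clusters the proteases fell into different cells. Gzma was mainly an NK-like transcript, with 1891 CPM over all cells of cluster 24 and 66.5% of all Gzma UMIs there. Across the 38 tumors with at least 10 cells of cluster 24 its level was 2060 ± 1020 CPM (SD), with a lowest value of 451, a median of 2050 and a highest of 4635 CPM. The next cluster, 13, had 417 CPM over all cells, and the gap between them was larger than either spread over tumors. A Gzma UMI was seen in 56.8% of cluster 24 cells (48.7% thinned) and in 17.6% of cluster 13 cells (12.0% thinned).

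Gzmb was spread more widely. It was highest in cluster 13, with 1410 CPM over all cells and 1403 ± 1271 CPM across tumors, followed by the Treg-like cluster 8 (827 CPM), cluster 24 (732 CPM) and cluster 3 (559 CPM). These neighbors in the order differed by less than their spread over tumors. Of Treg-like cells 49.1% had a Gzmb UMI (40.8% thinned), against 37.1% of cluster 3 cells (23.3% thinned), 39.5% of NK-like cells (29.6% thinned) and 49.1% of cluster 13 cells (36.9% thinned). The CD4 T-like cluster 10 had 24.8 CPM.

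Gzmc, Gzmd and Gzme were highest in the NK-like cluster, at 1923, 147 and 57.05 CPM over all its cells. Over tumors each lead was within the spread. Gzmc was at 1739 ± 1870 CPM against 188 ± 437 CPM in cluster 10. Against cluster 3, Gzmd was at 168 ± 402 and 57.2 ± 157 CPM, and Gzme at 73.3 ± 158 and 38.8 ± 90.6 CPM. Gzmf was at 141 CPM over all cells of cluster 3 and 125 CPM in cluster 24. Over tumors the Gzmf order was the other way, with a mean of 126.6 ± 312 CPM in cluster 24 and 105.4 ± 244 CPM in cluster 3, a gap within the spread. Cluster 24 held 73.7% of the Gzmc UMIs, but its level varied across tumors from 0 to 7893 CPM around a median of 1068 CPM. Cluster 3 held 50.5% of the Gzmf UMIs, in 4.98% of its cells. With cells thinned to equal depth, 8 of the 9 genes had the same cluster highest in CPM over all its cells (Gzmb at 1183 CPM in cluster 13 and 1003 CPM in cluster 8), and Gzmf did not.

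Gzmk, Prf1 and Nkg7 leaned to T cells or were shared. Gzmk was at 56.1 CPM in cluster 7 and 50.4 CPM in cluster 3, which held 45.2% of its UMIs, and at 4.90 CPM in NK-like cells. Prf1 was at 351 CPM in cluster 24, 261 CPM in cluster 3, 186 CPM in cluster 13, 79.2 CPM in Treg-like cells and 7.90 CPM in cluster 10. Nkg7 was at 2410 CPM in cluster 3, where 90.1% of cells had a UMI (82.5% thinned), and between 724 and 1770 CPM in clusters 13, 1, 24, 7, 12, 8 and 10, and it was at 62.0 CPM in gamma-delta T-like cells.

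**Figure D1:**
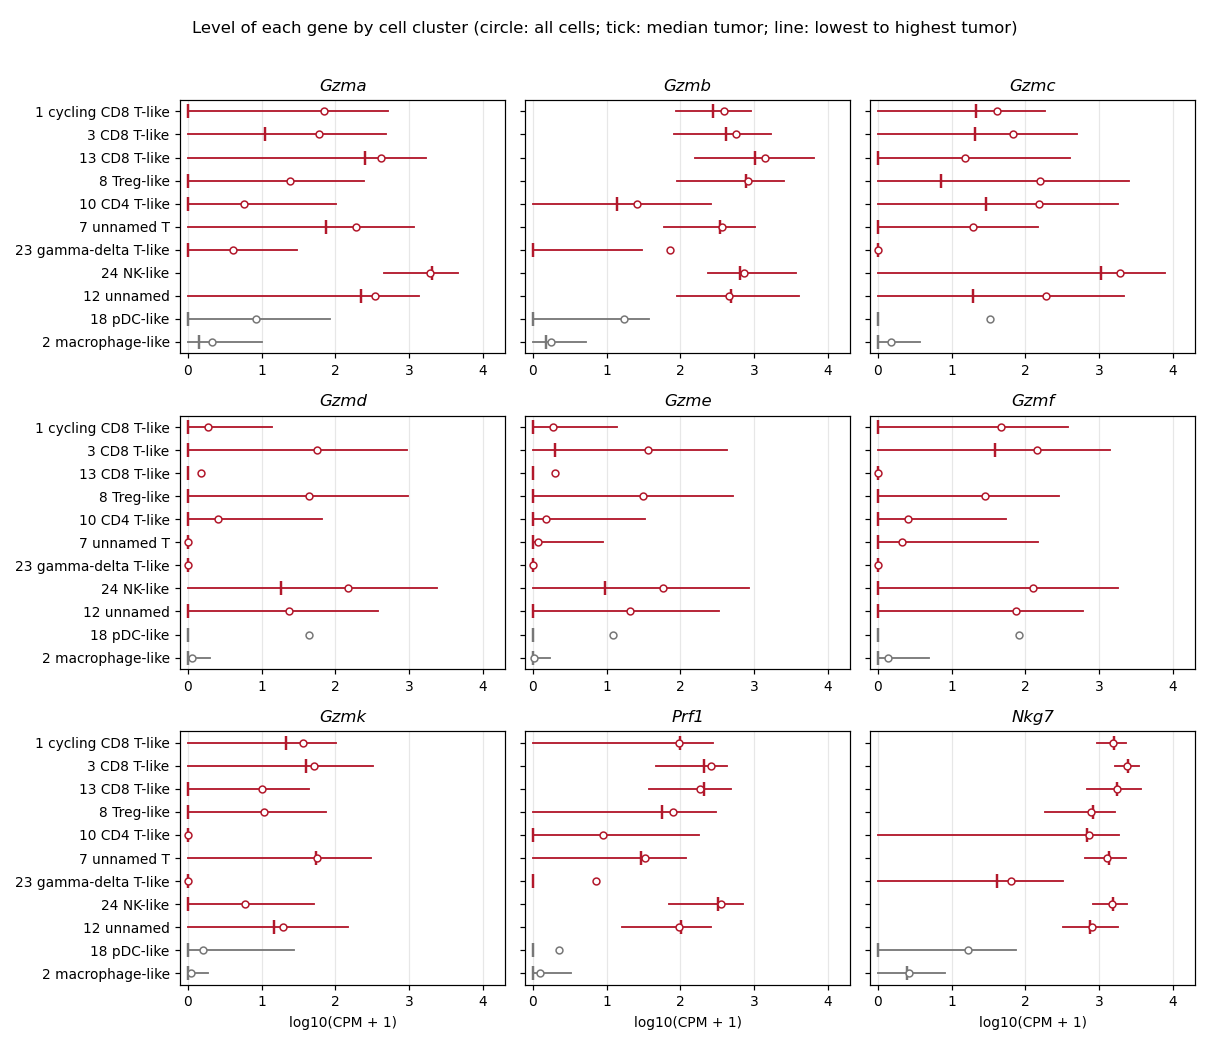
Level of each of the 9 genes by cluster, as log10(CPM + 1); circles give all cells of a cluster summed, ticks the median tumor and lines the lowest to the highest tumor with at least 10 cells, with T/NK clusters in red and plasmacytoid dendritic (pDC)-like and macrophage-like clusters in grey. Gzma is highest in NK-like cluster 24 at 1891 CPM against 417 CPM in cluster 13, and the tumor ranges of leading clusters overlap, for Gzma too.

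The genes whose levels over the 27 clusters were most like each member (Pearson r of log2 levels, 13051 genes compared, a description over clusters of the same libraries) were often other members. Gzmb was nearest to Prf1 (r = 0.96) and Cd27 (0.96), Gzmd to Gzme (0.98) and Gzmg (0.93), and Gzmf to Gzme (0.91) and Gzmd (0.91). Gzma and Gzmc were near Eomes (0.95 and 0.90), a transcription factor of NK cells and CD8 T cells, and Nkg7 was near the receptor genes Klrc1 (0.99) and Il2rb (0.98). Gzmk was nearest to Gm44174 (0.92).

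Within a cluster the UMIs of the inducible granzymes came from few cells. Of the T/NK cells, 179 with 10 or more Gzmc UMIs held 87.4% of all T/NK Gzmc, 36 cells held 80.4% of Gzmd, 23 cells held 68.7% of Gzme and 59 cells held 80.4% of Gzmf. Prf1 and Gzmk were the opposite, with 57 cells holding 15.7% and 1 cell holding 1.21%. The cells with 10 or more UMIs were deep, with a median of 7308.5 UMIs for Gzmd and 6291 for Gzmc against 1918 over T/NK cells.

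In the Treg-like cluster 1 cell held 413 of 934 Gzmc UMIs (44.2%) and 1 cell held 167 of 254 Gzmd UMIs (65.7%). CC080 tumors gave 70.0% and 92.9% of that cluster's Gzmc and Gzmd. In the CD8 T-like cluster 3, 1 tumor (CC002 aPD1, pool 5) gave 539 of 1316 Gzmf UMIs (41.0%).

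Outside the T/NK cells, a single cell stood out in cluster 18, which was pDC-like (Siglech 1559 CPM). The cell came from a CC080 isotype tumor (pool 3) and had 6664 UMIs, with 128 of Gzmf, 99 of Gzmg, 68 of Gzmd, 51 of Gzmc, 18 of Gzme and 11 of Gzmb. It had no UMI of the pDC markers Siglech, Ccr9 and Klk1 and none of Cd3e, Cd8a, Cd8b1 and Ncr1. It held every Gzmc, Gzmd, Gzme and Gzmf UMI of cluster 18, so levels of these 4 genes there describe that cell.

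Co-detection of members in the same cell was counted after thinning to 1000 UMIs, with exact (Clopper-Pearson) 95% intervals that cover counting error only, since cells of a tumor are not replicates. In NK-like cells the share with Gzma was lower where Gzmc was detected. Gzma was detected in 21.98% (16.8 to 27.9) of the 232 cells with Gzmc and in 54.7% (51.6 to 57.7) of the 1030 cells without it. Cells with Gzmc had a median of 4073 UMIs before thinning, against 2018 in those without, and the part of that difference in the result was not tested. Here and below, cells were pooled over tumors of differing levels, and shares were not compared within a tumor. Gzma went with Gzmb instead, which was detected in 41.5% (37.6 to 45.5) of the 614 cells with Gzma and 18.2% (15.3 to 21.4) of those without.

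The closely related granzymes were detected in the same cells. In NK-like cells with Gzmf (25 cells), Gzmc was detected in 88.0% (68.8 to 97.5) against 16.98% of the others, and Gzmd in 44.0% (24.4 to 65.1) against 1.46%. In cluster 3 cells with Gzmf (85 cells), Gzmd was detected in 22.4% (14.03 to 32.7) against 0.915% and Gzmc in 24.7% (15.99 to 35.3) against 1.71%. Gzmf shared no exact window of 91 bases with either gene (0 each), but the transcripts of Gzmd and Gzmf were 87.0% identical. Whether reads were given to the wrong gene was not tested.

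The share with Prf1 was higher where Gzmb was detected in CD8 T-like cluster 3. It was alike with and without Gzmb in Treg-like cells and in the cycling CD8 T-like cluster 1. In cluster 3, Prf1 was detected in 26.7% (23.2 to 30.4) of the 607 cells with Gzmb and 12.7% (11.3 to 14.3) of those without. In Treg-like cluster 8 the shares were 2.68% (1.57 to 4.25) of 635 cells with Gzmb and 2.82% (1.85 to 4.10) of those without. In cluster 1 they were 7.34% (3.22 to 13.95) of 109 cells with Gzmb and 6.34% (3.97 to 9.53) of 331 without. In cluster 13, Gzmb was detected in 69.0% (56.9 to 79.5) of the 71 cells with Gzma and 32.5% (28.5 to 36.7) of the others.

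**Figure D2:**
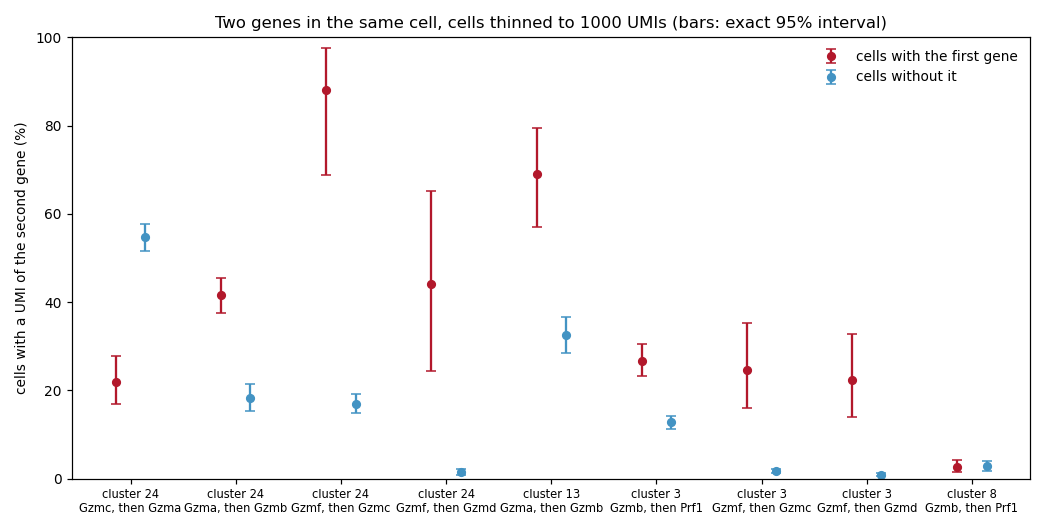
Percent of cells with a second gene, in cells with and without a first gene, for 9 gene pairs in clusters 24, 13, 3 and 8, all cells thinned to 1000 UMIs with lines giving the exact 95% interval. Gzma is at 21.98% in NK-like cells with Gzmc and 54.7% in those without, whereas Gzmc is at 88.0% in NK-like cells with Gzmf.

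At least 1 granzyme UMI was left after thinning in 68.9% of NK-like cells, 42.0% of Treg-like cells, 41.1% of cluster 13 and 30.2% of cluster 3 cells, against 0.347% of the macrophage-like cluster 2. Thinning left out 21.8% of NK-like, 29.4% of Treg-like, 6.34% of cluster 13 and 7.44% of cluster 3 cells, so these shares describe unequally selected cells. Without thinning the shares were 73.9%, 50.6%, 53.4% and 44.998% in the same order of clusters and 0.981% in cluster 2, with cluster 13 above the Treg-like cells. At least 2 different granzymes were left in 27.97% of NK-like, 9.31% of cluster 13, 5.54% of cluster 3 and 1.80% of Treg-like cells.

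The first comparison between hosts asked whether the T/NK cells of responder strains carried more or less of these mRNAs than those of nonresponder strains. Nkg7 was higher in responder strains, and the other 8 genes did not pass the test. Counts were summed per tumor over the T/NK cells and tested with the edgeR quasi-likelihood test, with p-values adjusted by Benjamini and Hochberg over every gene tested and a gene called at an adjusted p under 0.05. Of the 9 genes, all tested, 1 was called, against 2.23% of the 7219 genes tested. The median log2 difference was -0.31 over the 9 genes and -0.01 over all genes tested.

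Nkg7 was between 1422 and 2563 CPM (median 1728) in the responder isotype tumors and between 1121 and 2064 CPM (median 1707) in the responder aPD1 tumors. In the nonresponder strains it was between 831 and 1725 CPM (median 1268) with isotype and between 558 and 1578 CPM (median 1146) with aPD1. The groups overlapped, but 10 of 20 responder tumors were above all nonresponder tumors and 19 of 20 were above the nonresponder median. Here and below, such counts of tumors were not made for all genes. The mean was 1721 CPM in responder and 1145 CPM in nonresponder tumors, a log2 difference of 0.64 ± 0.11 (SE, n = 20 and 18, edgeR quasi-likelihood test, adjusted p = 0.000565).

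Prf1 was the only other gene with an unadjusted p under 0.05, at a log2 difference of 0.42 ± 0.19 and an adjusted p of 0.299 (edgeR). Gzmb had a log2 difference of 0.41 ± 0.23 (adjusted p = 0.424, edgeR) and Gzmk one of 0.56 ± 0.36 (adjusted p = 0.511, edgeR). Those of Gzma, Gzmc, Gzmd, Gzme and Gzmf had the other sign, from -0.31 to -0.78, with adjusted p from 0.461 to 0.901 (edgeR).

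The T/NK cells of the classes were not made of the same clusters. Cluster 3, which led for Nkg7, was on average 33.4% of the T/NK cells in responder isotype and 29.6% in responder aPD1 tumors, against 12.9% and 7.65% in nonresponder tumors. Treg-like cells were 15.9% and 16.8% in responder tumors against 23.2% and 35.7%, and NK-like cells 8.88% and 10.3% against 17.6% and 13.4%. The part of this mix in the differences between classes was not tested.

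The Nkg7 difference was 0.73 ± 0.16 (edgeR, adjusted p = 0.0139) in pools 1 to 5 alone. In pools 8 to 12 alone it was 0.54 ± 0.14 and not called (edgeR, adjusted p = 0.0731). The labels do not name these subsets. They hold different strains, with no CC036 or CC075 tumors in the first and no CC079 tumors in the second. With the tumors of a strain summed, which leaves 3 strains against 3, the Nkg7 difference was 0.62 ± 0.19 with an adjusted p of 0.819 (edgeR). The call therefore rests on tumors as the unit.

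**Figure D3:**
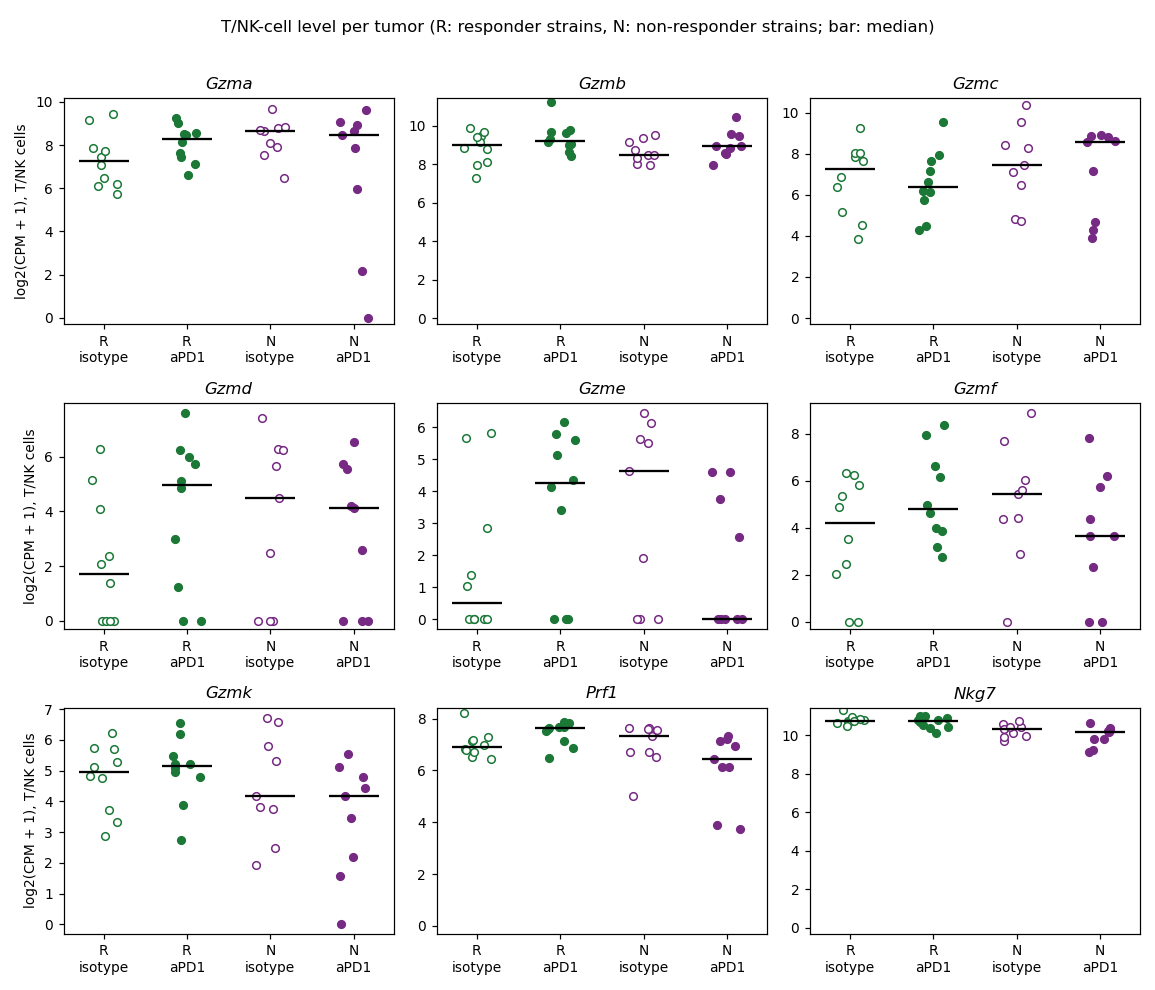
Level of each gene in the T/NK cells of 38 tumors as log2(CPM + 1), by class and treatment; each point is a tumor, the bar is the median, responder strains are green, nonresponder strains purple, isotype open and aPD1 filled. Responder Nkg7 medians are 1728 and 1707 CPM and nonresponder medians 1268 and 1146 CPM, and with aPD1 7 of 10 responder tumors are above all nonresponder tumors for Prf1 and 6 of 10 for Nkg7.

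Within isotype tumors no member was called, against 0.429% of all genes in the edgeR test (DESeq2 called 0). At an unadjusted p under 0.05 there were 4, against 8.41% of all genes. Nkg7 differed by 0.57 ± 0.16 (edgeR adjusted p = 0.102), with 5 of 10 responder tumors above all nonresponder tumors. The other 3 had the other sign. Gzmd differed by -2.11 ± 0.90 (edgeR adjusted p = 0.467), Gzme by -2.07 ± 0.84 (adjusted p = 0.42) and Gzmf by -1.70 ± 0.83 (adjusted p = 0.58). Their responder medians were 2.39, 0.522 and 19.7 CPM, and their nonresponder medians 21.2, 23.7 and 42.1 CPM, with tumors at 0 in both classes.

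Within aPD1 tumors Nkg7 was called (0.71 ± 0.16, edgeR adjusted p = 0.0362), as 1 of 9 members against 0.346% of all genes. The call was lost without CC002 (adjusted p = 0.177, edgeR), CC075 (0.0904) or CC079 tumors (0.232). Prf1 was between 88.6 and 230 CPM (median 196) in responder tumors and between 12.4 and 158 CPM (median 85.2) in nonresponder tumors. For Prf1, 7 of 10 responder tumors were above all nonresponder tumors, with a log2 difference of 0.91 ± 0.28 and an adjusted p of 0.148 (edgeR). Gzmk differed by 1.15 ± 0.54 (edgeR adjusted p = 0.449).

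Whether aPD1 changed these mRNAs within 48 h was asked in each class, between aPD1 and isotype tumors. In responder strains no member was called, nor was any gene (0%). At an unadjusted p under 0.05 there were 2 of 9, against 2.98% of all genes, and DESeq2 called 0. Gzmd had a log2 difference of 2.01 ± 0.88 and Gzmf one of 1.66 ± 0.79, each with an adjusted p of 1.00 (edgeR). Gzmf was between 0 and 79.6 CPM (median 19.7) with isotype and between 5.74 and 334 CPM (median 27.2) with aPD1, and was higher with aPD1 in 7 of 10 pairs of the same strain and pool. Gzma was higher in 8 of 10 pairs, Gzmb and Prf1 in 7 and Nkg7 in 5.

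In nonresponder strains no member was called with edgeR, against 0.0139% of all genes, and DESeq2 called 0. At an unadjusted p under 0.05 there was 1 of 9, against 3.64% of all genes. That gene was Gzme, with a log2 difference of -1.87 ± 0.87 (adjusted p = 1.00, edgeR), a median of 23.7 CPM with isotype and 0 CPM with aPD1, and 5 of 9 aPD1 tumors at 0. Gzmb was higher with aPD1 in 7 of 9 pairs, Gzma in 4, Prf1 in 2 and Nkg7 in 1, with Prf1 at -0.57 ± 0.29 (edgeR adjusted p = 1.00).

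The difference between the 2 aPD1 effects, responder minus nonresponder, was tested as an interaction. No member was called and no gene was (0%), and DESeq2 called 0 members. At an unadjusted p under 0.05 there were 4 of 9, against 3.42% of all genes. These were Gzme at 3.52 ± 1.21, Gzmd at 3.01 ± 1.23, Gzmf at 2.55 ± 1.13 and Prf1 at 0.99 ± 0.39, each with an adjusted p of 1.00 (edgeR). Gzmd, Gzme and Gzmf rested on few cells, some of which held more than 1 of them, and Gzmd and Gzme share stretches of sequence, so they are not 3 separate measurements.

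**Figure D4:**
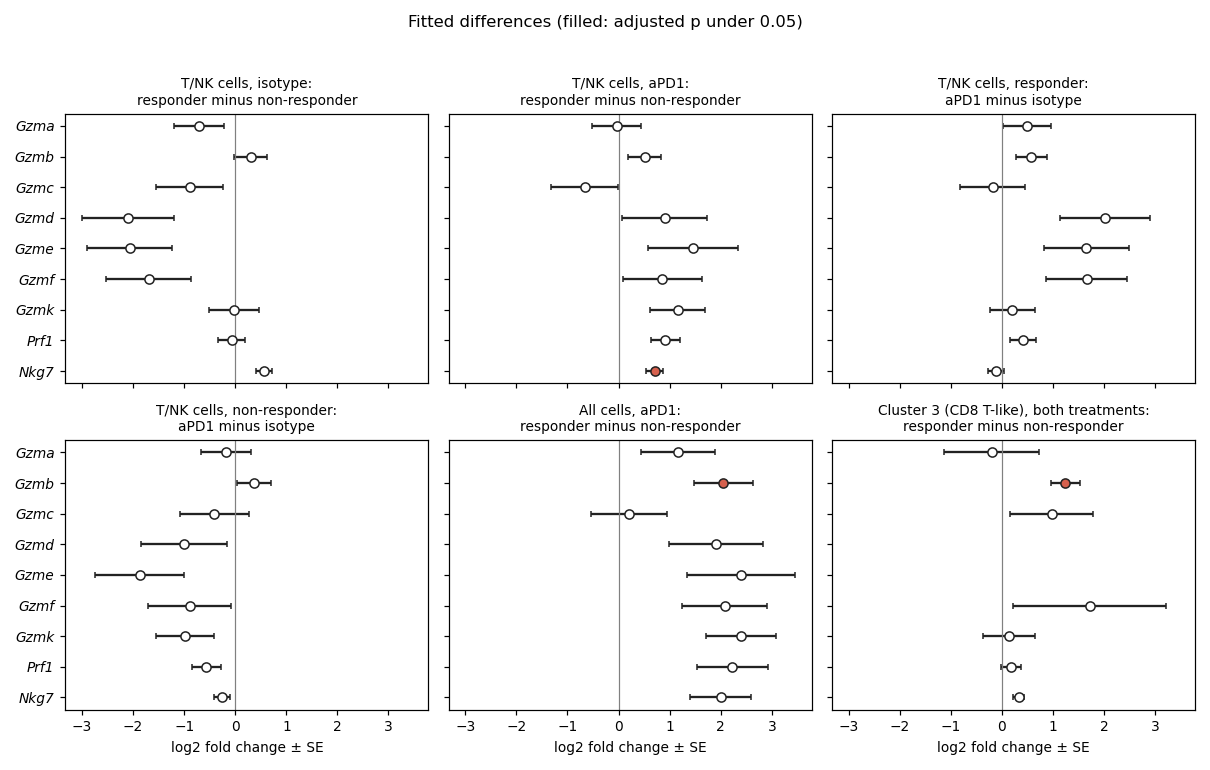
Log2 difference with its SE for each gene in 6 comparisons of the edgeR fits, filled where the adjusted p is under 0.05. Between classes, Nkg7 in T/NK cells of aPD1 tumors (0.71), Gzmb over all cells of aPD1 tumors (2.05) and Gzmb in cluster 3 (1.24) are filled. Gzmd and Gzme have no point for cluster 3 because a group is at 0.

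Summed over all cells of a tumor the same genes also follow how many lymphocytes were there, and fewer cells of a type and less RNA per cell cannot be told apart in these sums. Comparing classes over both treatments, none of the 9 genes was called with edgeR, against 3.2% of 13503 genes. At an unadjusted p under 0.05 there were 3, against 14% of all genes. DESeq2 called 1 (Gzmb), beside 614 of 13491 genes, against 432 with edgeR. Gzmb differed by 1.18 ± 0.40 (edgeR adjusted p = 0.109), Nkg7 by 1.17 ± 0.41 (adjusted p = 0.132) and Gzmk by 1.15 ± 0.47 (adjusted p = 0.222). In isotype tumors alone no member was called, against 0.222% of all genes (DESeq2 called 0), and 2 had an unadjusted p under 0.05, against 5.86%. Those were Gzmd at -2.86 ± 0.99 and Gzme at -2.40 ± 1.12 (edgeR adjusted p = 0.421 and 0.778).

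In aPD1 tumors Gzmb was called with edgeR, 1 of 9 members against 2.34% of all genes, while DESeq2 called 4 (Gzmb, Gzmk, Prf1 and Nkg7), as did edgeR with the pool as a block. Calls over all genes also rose, from 316 to 626 with DESeq2 and 863 with the block. Gzmb was between 19.6 and 178 CPM (median 73.5) in responder and between 5.67 and 38.02 CPM (median 21.03) in nonresponder tumors. Of the responder tumors 7 of 10 were above every nonresponder tumor. The means were 85.8 and 21.5 CPM, a log2 difference of 2.05 ± 0.58 (edgeR adjusted p = 0.0471).

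The Gzmb call over all cells lay close to the threshold. It was lost without CC002 (adjusted p = 0.0595, edgeR), CC036 (0.0846), CC075 (0.201), CC079 (0.247) or CC080 tumors (0.0662), and without the 2 tumors that share an animal number. Next to it stood Gzmk at 2.39 ± 0.68 (edgeR adjusted p = 0.0519), Nkg7 at 1.99 ± 0.60 (0.065) and Prf1 at 2.23 ± 0.69 (0.0748). T/NK cells gave on average 11.5% of the UMIs of responder aPD1 tumors and 4.33% of those of nonresponder aPD1 tumors, against 9.89% and 11.8% in isotype tumors. The medians were 9.83% and 4.37% with aPD1 and 7.01% and 4.42% with isotype, so the high nonresponder isotype mean came from few tumors, the highest at 41.6%. The part of this share in the Gzmb difference was not tested, and Gzmb in T/NK cells alone differed by 0.51 ± 0.32 in aPD1 tumors (edgeR adjusted p = 0.63).

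The aPD1 effect over all cells gave no called member in responder strains (0% of all genes, DESeq2 0), with 2 at an unadjusted p under 0.05 against 4.37% of all genes, Gzmd at 2.36 ± 0.97 and Gzmf at 2.23 ± 0.86 (edgeR adjusted p = 1.00 each). In nonresponder strains it also gave none (0% of all genes, DESeq2 0), with 5 against 3.79%. The 5 all had the negative sign, with Prf1 at -2.08 ± 0.71, Gzme at -3.12 ± 1.08, Gzmd at -2.41 ± 0.94, Gzmk at -1.86 ± 0.70 and Nkg7 at -1.55 ± 0.60 (edgeR adjusted p = 1.00 each). Prf1 had a median of 5.72 CPM with isotype and 4.07 CPM with aPD1 in those strains, and was higher with aPD1 in 2 of 9 pairs. The interaction called none (0% of all genes, DESeq2 0), with 6 members (Gzmb, Gzmd, Gzme, Gzmf, Gzmk and Prf1) at an unadjusted p under 0.05 against 6.64% of all genes. Gzmd led with 4.77 ± 1.35 (edgeR adjusted p = 0.68).

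Comparing classes inside 1 cluster takes the mix of clusters out. In CD8 T-like cluster 3, among tumors with at least 10 such cells (9 responder isotype, 10 responder aPD1, 7 nonresponder isotype and 5 nonresponder aPD1), Gzmb was higher in responder strains. It was the 1 of 9 members called, against 0.769% of 4031 genes. Gzmb was between 171 and 741 CPM (median 405) in responder isotype tumors and between 132 and 975 CPM (median 343) in nonresponder isotype tumors. With aPD1 it was between 383 and 1679 CPM (median 701) in responder tumors, and 322 CPM in a CC036 tumor of pool 8, 143 CPM in CC036 of pool 9, 82.9 CPM in CC036 of pool 10, 170 CPM in CC080 of pool 3 and 81.6 CPM in CC080 of pool 4 among the nonresponder tumors.

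The isotype groups overlapped and the aPD1 groups did not, and such separation was not counted over all genes. In pooled counts Gzmb was 390 CPM in responder and 513 CPM in nonresponder isotype tumors, the opposite order to the medians. With aPD1 it was 748 and 145 CPM. Gzmb was not tested between classes within 1 treatment in this cluster. Over both treatments the means were 601 and 278 CPM, a log2 difference of 1.24 ± 0.29 (edgeR adjusted p = 0.0295). The call was lost with the pool as a block (1.34 ± 0.36, edgeR adjusted p = 0.0989) and without CC002 (adjusted p = 0.117), CC036 (0.145) or CC075 (0.106), the sign staying the same. The 5 nonresponder aPD1 tumors had 104 cluster 3 cells in all, from 2 strains, and between 4 and 17 Gzmb UMIs each.

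Other members in cluster 3 were not called. Nkg7 was at medians of 2745, 2667, 2086 and 1918 CPM in responder isotype, responder aPD1, nonresponder isotype and nonresponder aPD1 tumors, a log2 difference of 0.33 ± 0.11 between classes (edgeR adjusted p = 0.245). Prf1 had medians of 163, 345, 188 and 180 CPM in the same order, and 8 of 10 responder aPD1 tumors were above all 5 nonresponder aPD1 tumors. The class difference of Prf1 over both treatments was 0.17 ± 0.20 (edgeR adjusted p = 0.851).

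Gzmd, Gzme and Gzmf were at or near 0 in cluster 3 of the nonresponder aPD1 tumors. Gzmf had medians of 12.5 and 76.0 CPM in responder isotype and aPD1 tumors and of 65.9 and 0 CPM in nonresponder tumors, where 4 of 5 aPD1 tumors were at 0 and the other had 1 UMI. Its aPD1 groups did not overlap, with responder tumors from 25.4 to 608 CPM. The nonresponder aPD1 tumors held 1 Gzmf UMI in all, below the 3 counts of the floor, and such separation was not counted over all genes. Gzmd and Gzme had 0 UMIs in the 104 cells and 393979 UMIs of the nonresponder aPD1 tumors, which allows up to 7.61 CPM, against pooled values of 74.2 and 42.7 CPM in responder aPD1, 56.7 and 99.8 CPM in nonresponder isotype and 5.40 and 4.42 CPM in responder isotype tumors. No fold is given for these. The aPD1 effect in cluster 3, over both classes, called no member and no gene (0%), and no member had an unadjusted p under 0.05, against 4.12% of all genes (DESeq2 called 0). That effect is a mean over classes whose pairs differed in direction, with Gzmb and Prf1 each higher with aPD1 in 7 of 9 responder and 1 of 5 nonresponder pairs, and Gzmf in 7 of 9 and 0 of 5. The difference between classes in the aPD1 effect was not tested within cluster 3.

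In Treg-like cluster 8 only 4 of the 9 genes (Gzmb, Gzmc, Prf1 and Nkg7) passed the filter on low counts. None was called between classes with edgeR, against 0.166% of 3012 genes, and 2 had an unadjusted p under 0.05, against 10.6% (DESeq2 called 0). Gzmb means were 819 and 782 CPM, a log2 difference of 0.15 ± 0.33 (edgeR adjusted p = 0.905). Gzmc differed by -2.07 ± 0.86 (edgeR adjusted p = 0.378), with the single cell named above in it. Nkg7 differed by 0.38 ± 0.18 (edgeR adjusted p = 0.441) and Prf1 by 0.57 ± 0.45 (adjusted p = 0.655). For aPD1 none was called (0% of all genes) and none had an unadjusted p under 0.05, against 2.12% (DESeq2 0).

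In NK-like cluster 24, 8 of the 9 genes were tested, Gzmk being too low. No member was called between classes, against 0.132% of 1515 genes, and none had an unadjusted p under 0.05, against 8.45% (DESeq2 0). Gzma had a median of 2142 CPM in 16 responder tumors and 1655 CPM in 14 nonresponder tumors, Prf1 306.7 and 344.5 CPM, and Nkg7 1611 and 1523 CPM. The log2 differences were 0.43 ± 0.28, 0.03 ± 0.20 and 0.02 ± 0.14. The aPD1 effect called no member and no gene (0%), with no member at an unadjusted p under 0.05 against 1.39% (DESeq2 0). It too is a mean over classes. Pairs differed in direction for Gzma and Nkg7, each higher with aPD1 in 5 of 6 responder and 1 of 5 nonresponder pairs. In pooled counts the other tested members did not share that pattern. Gzmb went from 834.9 to 627.8 CPM with aPD1 in responder tumors and from 624.9 to 684.8 CPM in nonresponder tumors. Gzmc went from 2584 to 1279 CPM and from 1629 to 1725 CPM, and Gzme moved in the same directions as Gzmc. Prf1 was lower with aPD1 in both classes, and Gzmd and Gzmf were higher in both. The difference between classes in the aPD1 effect was not tested within cluster 24.

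The 8 strains were then compared with each other. In T/NK cells of all 48 tumors, with treatment as a covariate, 6 of 9 members were called in the edgeR test of any strain difference, against 23.5% of 8164 genes. They were Nkg7 (adjusted p = 0.000541), Gzmk (0.0025), Gzmf (0.0127), Gzmb (0.0175), Prf1 (0.0319) and Gzma (0.0408), and not Gzmc (0.061), Gzme (0.0782) or Gzmd (0.458), all by edgeR. The 9 genes are expressed in the same cells, so these are not separate counts. The mix of clusters in the T/NK cells also enters these values, and its part in the strain differences was not tested. In cluster 3 alone, Nkg7 (edgeR adjusted p = 0.0902) and Prf1 (0.643) did not keep the call. Each strain was in only 2 to 4 of the 12 pools, so strain and pool are partly mixed. With the pool as a block, an alternative chosen after seeing the data, 4 members were called (Nkg7, Gzmk, Gzmb and Prf1), and the count over all genes was 564 in place of 1916. Gzma (edgeR adjusted p = 0.674) and Gzmf (0.0564) lost the call.

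Nkg7 averaged 1949 ± 320.5 CPM (SD, n = 6) in CC002, 1695 ± 266.5 in CC075, 1597 ± 487 in B6, 1569 ± 273 (n = 8) in CC001, 1387 ± 223 in CC036, 1219 ± 237 in CC080, 1099 ± 671.5 (n = 4) in CC007 and 828 ± 215 CPM in CC079. The 3 responder strains were above the 3 nonresponder strains in their means, and each neighboring pair in this order differed by less than the larger of its SDs. Of the CC007 tumors, 1 had only 8 T/NK cells and 1 Nkg7 UMI. Without it the CC007 mean was 1413 ± 292 CPM (n = 3), between CC001 and CC036, and the neighbors CC080 and CC079 then differed by more than either SD. The strain test without it, chosen after seeing the data, called the same 6 members, beside 2138 of 8458 genes. Prf1 too was highest in CC002 (192 ± 67.9 CPM) and lowest in CC079 (62.7 ± 56.6 CPM), but its strain means overlapped between classes. The responder strain CC001 averaged 129 CPM, below the nonresponder strains CC036 (143 CPM) and CC080 (141 CPM).

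For the other 4 genes that differed between strains, the means of responder and nonresponder strains overlapped as well. Gzma was highest in B6 (707 ± 499 CPM) and CC036 (542 ± 223 CPM) and lowest in CC079 (187 ± 195.5 CPM) and CC001 (193 ± 166 CPM). In B6 1 isotype tumor of 35 T/NK cells reached 1678 CPM, and the B6 and CC036 medians were 571 and 504 CPM. Gzmb was highest in CC075 (921 ± 737 CPM), where 1 aPD1 tumor reached 2383 CPM, followed by B6 (724 CPM) and the nonresponder strain CC079 (710 CPM). Gzmk was highest in CC075 (53.5 ± 30.8 CPM) and lowest in CC080 (7.93 ± 6.08 CPM), with the nonresponder strain CC036 at 43.6 ± 31.6 CPM. Gzmf was highest in CC079 (130 ± 181 CPM) and CC002 (119 ± 137 CPM), from opposite classes. Reads of all strains were aligned to the C57BL/6J genome, and the part of strain sequence differences in these values was not tested.

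**Figure D5:**
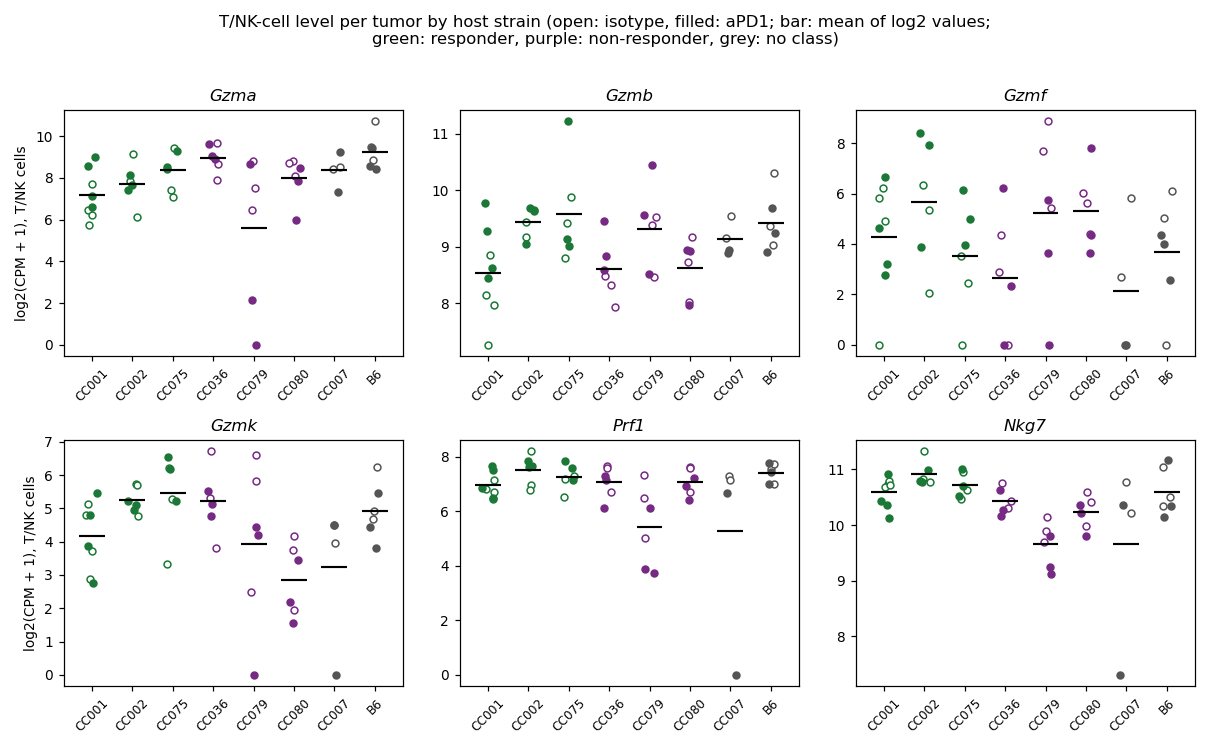
Level of 6 genes in T/NK cells as log2(CPM + 1) by host strain; each point is a tumor and the bar is the mean of the log2 values. Nkg7 means run from 1949 CPM in CC002 to 828 CPM in CC079, and Gzmk is lowest in CC080 at 7.93 CPM.

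Other genes of the pathway were read from fixed lists. In T/NK cells between classes none of 7 genes of granule load and granzyme or perforin processing was called. None was called of 9 of granule release (including Unc13d and Rab27a, which dock and prime granules) or of 5 tested serpins (protease inhibitors) of 6. Whether each of these serpins acts on granzymes was not tested. None was called of 8 transcription factors or of 3 tested target-cell substrates of 4. Among 6 other killing effectors 1 was called, against 2.23% of all genes, namely Klrd1, an NK receptor subunit also on CD8 T cells, at a log2 difference of 0.81 ± 0.16 (edgeR adjusted p = 0.00191). Ifng, the interferon gamma gene, was at 1.27 ± 0.40 (edgeR adjusted p = 0.0849). Of the other granzymes, Gzmg, Gzmm and Gzmn were too low to test in this comparison, with 204, 221 and 0 UMIs over all T/NK cells.

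Klrd1 was also called within aPD1 tumors, as 1 of 6 other effectors against 0.346% of all genes (0.99 ± 0.23, edgeR adjusted p = 0.0362) and in cluster 3 (0.68 ± 0.16, adjusted p = 0.0258), where the serpin Serpinb6a was lower in responder strains (-1.09 ± 0.27, adjusted p = 0.0411), each 1 of 5 tested in its list against 0.769% of all genes. Over all cells and both treatments, the serpin Serpina3f (1.02, edgeR adjusted p = 0.00577) and the vesicle fusion gene Vamp8 (0.20, adjusted p = 0.0359) were higher in responder strains, 1 of 6 serpins and 1 of 9 granule release genes against 3.2% of all genes. In aPD1 tumors over all cells, 2 of 6 serpins (Serpina3f and Serpina3g), 1 of 9 granule release genes (Vamp8) and 1 of 6 other effectors (the chemokine Ccl5) were called, all higher, against 2.34% of all genes. Between isotype tumors, for the aPD1 effects and for the interactions, no list gene was called in T/NK cells or over all cells with edgeR, nor in clusters 8 and 24.

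Between the 8 strains many list genes differed in T/NK cells. Called were Gzmg, the 1 tested of 3 other granzymes (edgeR adjusted p = 0.0125), and 2 of 7 of granule load, among them Cst7, an inhibitor of the proteases that activate granzymes (edgeR adjusted p = 3.16e-06), and 5 of 9 of granule release. Called also were 5 of 6 serpins, 4 of 8 transcription factors with Tbx21, which encodes T-bet (edgeR adjusted p = 0.00024), 5 of 6 other effectors with Ifng (0.00014) and Klrd1 (7.7e-05), and 1 of 3 tested substrates. These shares stand beside the 23.5% of all genes given above and come from the fit without the pool.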

How the data were processed

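Cells of 12 pooled libraries (10x 5′ chemistry, 4 hashtagged tumors each) were used. Per the labels and methods, the authors aligned reads with Cell Ranger to GRCm38 (mm10) and processed cells with Seurat 5.0.1, and they deposited raw UMI counts for 26938 genes with a cluster, strain and treatment for each cell. Each cell carried 1 hashtag in the deposited table. How doublets were treated is not given in the sources used here, and no doublet caller was run. No deposited column of per-sample values was left unmapped (0). The 9 genes and all gene and marker lists were chosen with earlier results of these data known. The rule for named genes was all 9 genes in every comparison and the called genes of each list. A member without a value in a comparison was not called there.

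Counts were summed per tumor, over T/NK cells, all cells, or 1 cluster where a tumor had at least 10 of its cells and each group at least 3 tumors. They were tested with edgeR 4.0.16 in R 4.3.3 (glmQLFit and glmQLFTest, TMM scaling, filterByExpr), with 1 mean for each class and treatment, and Benjamini-Hochberg adjustment at 0.05. Strains were tested over all 48 tumors. Alternatives were DESeq2 1.42.0, other scaling, no filter, leaving out strains or tumors (in the strain test, tumors of under 10 T/NK cells), pool subsets and the pool as a block. The procedure was tested on simulated data. Levels are CPM (scaled to 1000000 UMIs of the same cells), and depth ranged over tumors as given in the report. Shares of cells were computed after thinning to 1000 UMIs (numpy 2.4.6, scipy 1.17.1). A floor is 3 counts over a group, and intervals cover counting error only.

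The pool is a shared library. After removing group means, isotype and aPD1 tumors of the same strain and pool correlated at a median r of 0.313 over 7026 genes (19 pairs, 18 over 0.1), tumors of different strains in a pool at 0.130 and tumors sharing neither at -0.0616. Tumors are taken as separate animals except the 2 that share a number. Gene positions are from GENCODE release 21 for mouse.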

Additional observations from a re-analysis of the deposited data

Results flagged for a closer look

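In 19 of 64 groups of 4 to 10 tumors, the highest tumor lay far from the others by Dixon's criterion. Chance meets it in about 1 in 20 groups where values follow a normal distribution. That shape was not tested for these CPM values, and all 19 flags were highest tumors, so the rates cannot be set against each other. The genes are co-expressed and the populations overlap, so these are not 19 separate events, and 6 of them were the CC002 isotype tumor of pool 12, which had 248 cells.

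In that tumor Nkg7 was 2563 CPM and Prf1 293 CPM in T/NK cells (next highest responder isotype tumors 1975 and 154 CPM). Over all its cells Gzmb was 249.9 CPM, Gzmk 16.1, Nkg7 802 and Prf1 91.5 CPM (next highest 130, 5.19, 278 and 20.2 CPM).

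In T/NK cells, Gzma was 820 CPM in a CC036 isotype tumor of pool 9, with the next at 450 CPM. Gzmb was 2383 CPM in the CC075 aPD1 tumor of pool 10 (next 872 CPM) and 1390 CPM in the CC079 aPD1 tumor of pool 2 (next 755 CPM). Gzmc and Gzmd were 736 and 191 CPM in the CC001 aPD1 tumor of pool 1 (next 248 and 74.6 CPM) and 599 and 77.1 CPM in the CC002 isotype tumor of pool 3 (next 260 and 34.1 CPM). Gzmd was 168 CPM in the CC080 isotype tumor of pool 11 (next 75.9 CPM). Gzmf was 226 CPM in the CC080 aPD1 tumor of pool 11 (next 73.5 CPM) and 467 CPM in the CC079 isotype tumor of pool 2 (next 208 CPM).

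Over all cells, Gzmk was 16.1 CPM in the CC036 isotype tumor of pool 8 (next 4.97 CPM), and Prf1 was 59.9 CPM in the CC075 aPD1 tumor of pool 9 (next 33.8 CPM). In cluster 3, Nkg7 was 3316 CPM in the CC036 aPD1 tumor of pool 10, which had 18 such cells, with the next at 1972 CPM.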

How the results depend on the processing

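Of 239 counts of called members under alternatives, 214 stayed within 1.5 times the main count, and no called difference changed sign. Of 2007 values of single members, 22 lost and 23 gained the call, and 137 that were not called changed sign. The cause of the changes below was not tested, apart from fewer tumors where tumors were left out.

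In T/NK cells between classes, 0 members were called in pools 8 to 12 alone and 0 with counts summed per strain, where 6 strain sums remain. Nkg7 kept its sign in 17 of 17 alternatives and its call in 15, and leaving out each strain in turn gave 1 to 1 called members (Nkg7 from 0.46 without CC079 to 0.77 without CC036). Within aPD1 tumors, leaving out a strain gave 0 to 1. Over all cells between classes, DESeq2 called 1, beside 614 of 13491 genes in place of 432 of 13503, and leaving out a strain gave 0 to 1. Over all cells within aPD1 tumors, 0 were called with library size alone, 0 without a filter on low counts and 0 without the tumors sharing an animal. There, 4 (Gzmb, Gzmk, Prf1 and Nkg7) were called with DESeq2, 4 with the pool as a block and 4 without tumors of under 500 cells. Another 4 were called with a term for pools 1 to 6 or 7 to 12, which the labels do not name. These stood beside 626, 863, 371 and 506 genes in all in place of 316. Leaving out a strain gave 0 to 3 (3 without CC001, beside 457 of 13685 genes). In cluster 3 between classes, 0 were called with the pool as a block, and leaving out a strain gave 0 to 1. Between strains the block, chosen after seeing the data, gave 4 in place of 6. Apart from these 3 comparisons, the block changed no count of called members. Between strains, 6 members were called among the 6 classed strains, Gzmc in place of Gzma, beside 2564 of 7634 genes. In cluster 3 alone 7 were called, beside 571 of 5282 genes, but not Nkg7 (edgeR adjusted p = 0.0902) or Prf1 (0.643).

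Clusters 1 and 13 were not fitted, with 1 nonresponder aPD1 tumor of at least 10 cells in each, nor was cluster 3 at 20 cells a tumor, with 2. Where a tumor had no UMI of Gzmd, Gzme or Gzmf, a level below 1 UMI of its total was not detectable at this depth.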

Other observations

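B6 and CC007 F1 tumors had no class and entered only the strain comparison. In T/NK cells of B6 isotype tumors of pools 6, 7 and 8, Gzma, the NK-like granzyme, was 702, 1678 and 459 CPM, and in aPD1 tumors of the same pools 347, 683 and 374 CPM, lower with aPD1 in each pool. Prf1 was 128, 187 and 213 CPM with isotype and 127, 171 and 216 CPM with aPD1. Nkg7 was 1443, 2120 and 1296 CPM with isotype and 1133, 2297 and 1291 CPM with aPD1. The pool 7 isotype tumor had 35 T/NK cells. With 3 tumors against 3 these were not tested apart from the strain comparison.

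In CC007 tumors of pools 6 and 7, Gzmb was 744 and 572 CPM with isotype, and 488 CPM in the pool 7 aPD1 tumor, the pool 6 aPD1 tumor having only 8 T/NK cells and 3 Gzmb UMIs.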
